A study of Mus musculus with 12 samples.

Results

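The 6 genes of the Nodal pathway described here were followed through mouse eye organoids at day 7 of culture: the ligands Nodal and Gdf3, the antagonists Lefty1 and Lefty2, the co-receptor Tdgf1 and the transcription factor Foxh1. They were taken by name, 6 of the 54232 gene IDs counted in each library, and all 6 passed the filter on low counts. The organoids grew from embryonic stem cells (ESCs) of 1 line that is heterozygous for a GFP knock-in at Rax, an early eye field gene. The 3 conditions had 4 RNA-seq libraries each. LDHi+lactate organoids received 20 µM GNE-140, an inhibitor of lactate dehydrogenase, for 3 days together with 25 mM lactate, which the labels place 12 h ahead of the inhibitor. LDHi organoids received 20 µM GNE-140 for 3 days with no lactate, and control organoids received neither agent. The cells of all 3 conditions carried the Rax-GFP allele. By the study's methods, the organoids for RNA-seq came from 4 independent experiments, and the labels do not say which libraries share one. Replicates 1 and 2 of each condition carry the cell type label eye organoid and are called the first library set, and replicates 3 and 4, with the label retina progenitors, the second.

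Nodal is a secreted ligand of the TGF-β superfamily that binds activin receptors together with the membrane-anchored co-receptor Tdgf1 (Cripto). The receptors phosphorylate Smad2 and Smad3, which enter the nucleus with Smad4 and act on DNA with partners such as Foxh1. Nodal, Lefty1 and Lefty2 are themselves targets of this pathway in mouse embryos, and the Lefty proteins block Nodal outside the cell, so that the pathway activates and limits itself. Gdf3 is a related ligand that uses the same co-receptor. In mouse ESCs and the early epiblast these genes are active, and low Nodal signalling favours the anterior neural fate from which the eye field arises.

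LDHi+lactate libraries held 29255114 to 42489921 counts, LDHi libraries 22174002 to 46881759 and control libraries 25209097 to 48271386. Levels are given as CPM, the gene's count relative to the scaled size of its library, in the usual per-megacount unit, and a gene was called when its edgeR adjusted p, over all 17721 genes tested, was under 0.05. The labels give each condition the same replicate numbers, and deviations from the condition means were shared within a number, so each result is given without and, where the call differs, with the replicate number as a block. Eye field genes were at lower levels in LDHi than in control organoids: 7 of 10 were called lower without the block and 10 of 10 with it, as were 2.18% and 10.1% of all genes. Rax was at 4.15, 4.65, 13.2 and 4.41 CPM in LDHi replicates 1 to 4, against 35.9, 24.8, 33.0 and 12.7 CPM in control.

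The positions of the 6 genes (mm10, GENCODE vM21) show a close pair. Lefty1 (ENSMUSG00000038793) lies on the plus strand at chr1:180935022-180938400, and Lefty2 (ENSMUSG00000066652) on the same strand at chr1:180893108-180899103, with 35.9 kb between them. Nodal (ENSMUSG00000037171) lies at chr10:61417972-61425338 on the plus strand. On the minus strand, Gdf3 (ENSMUSG00000030117) lies at chr6:122605403-122610087, Tdgf1 (ENSMUSG00000032494) at chr9:110939603-110946158 and Foxh1 (ENSMUSG00000033837) at chr15:76668225-76669948. None of the 6 overlaps another annotated gene. Lefty1 and Lefty2 are near copies of each other: 17.93% of the 50-base stretches of Lefty1 exons, the length of the reads, also occur in Lefty2, and 11.99% of those of Lefty2 occur in another gene. For Tdgf1, 8.86% were shared, all with the pseudogene Tdgf1-ps1. The levels of these genes are uncertain by the reads from shared stretches, while Nodal and Foxh1 shared none.

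Promoter sequence was at hand for 2 of the 6 genes, in RefSeq (GRCm38.p6), and is shown because the 6 genes moved together across libraries and because Foxh1, one of them, encodes a DNA-binding factor. The 250 bases before the start of Nodal (chr10:61417722-61417971, plus strand) and of Tdgf1 (chr9:110946159-110946408, minus strand) were searched on both strands. The motifs sought were AATNNACA, a loose form of the FOXH1 core in which N is any base, the SMAD box CAGAC and the octamer ATGCAAAT. Capitals mark the matches, none of which overlaps another.
Nodal: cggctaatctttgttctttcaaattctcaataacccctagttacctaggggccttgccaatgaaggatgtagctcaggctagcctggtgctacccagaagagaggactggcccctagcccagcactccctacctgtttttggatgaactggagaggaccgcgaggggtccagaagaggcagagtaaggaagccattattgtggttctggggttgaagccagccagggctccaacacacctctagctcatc
Tdgf1: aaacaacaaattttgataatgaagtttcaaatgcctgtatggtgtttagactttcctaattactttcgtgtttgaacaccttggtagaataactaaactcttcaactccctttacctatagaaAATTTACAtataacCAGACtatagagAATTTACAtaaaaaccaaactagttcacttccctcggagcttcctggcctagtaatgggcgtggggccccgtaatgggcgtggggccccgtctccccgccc
The Tdgf1 stretch held AATTTACA, a match to AATNNACA, at bases -127 to -120 and again at -101 to -94. A SMAD box lay at -113 to -109 between them, positions counted back from the start of the transcript. Narrower forms of the FOXH1 core were not searched, so these matches are not called FOXH1 sites. None of the motifs was found in the 250 bases before Nodal. Sequence outside these stretches, for either gene, was not searched. Of 32851 mouse promoters of this length, 10.9% held AATNNACA, 1.12% held it 2 or more times, 42.2% held the SMAD box and 1.6% the octamer. A match is a description of the sequence and not of binding.

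Per kilobase of exon, Tdgf1 or Foxh1 stood highest in most libraries and the Lefty genes lowest. Tdgf1 ranked first in 7 of 12 libraries, Foxh1 in 4 and Lefty1 in 1, while Lefty2 ranked last in 8. The median levels in LDHi organoids were 14.7 CPM per kb for Tdgf1, 11.7 for Foxh1, 9.54 for Gdf3, 9.12 for Nodal, 4.97 for Lefty1 and 3.98 for Lefty2. In LDHi+lactate organoids Foxh1 had the highest median, 8.31 CPM per kb, and Lefty1 the lowest, 2.28. In control the medians lay between 1.38 CPM per kb for Lefty2 and 6.18 for Tdgf1. Nodal and Lefty1 in LDHi differed by more than the SD of either (2.80 and 3.47 CPM per kb). The medians of all other neighbours in this order, in each condition, were closer than the larger SD of the pair.

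**Figure D1:**
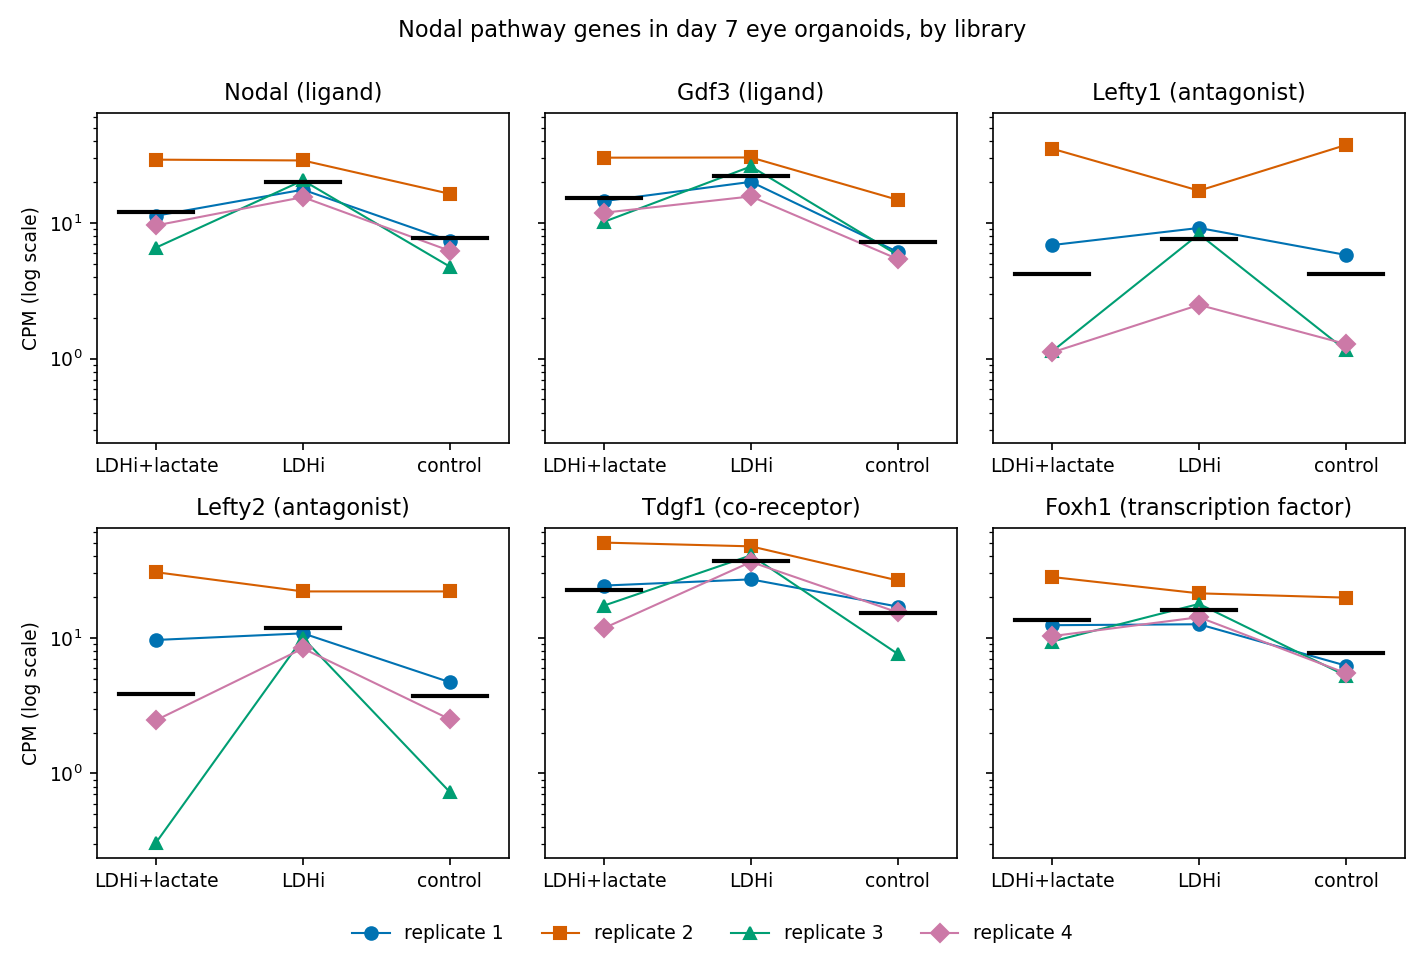
CPM (log axis) of the 6 genes in each of the 12 libraries, by condition; points joined by a line share a replicate number and black bars are geometric means of 4 libraries. Replicate 2 was highest for all 6 genes in all 3 conditions, and the Lefty genes spread most: Lefty2 lay between 0.309 and 30.5 CPM in LDHi+lactate, between 8.36 and 22.0 CPM in LDHi and between 0.729 and 22.0 CPM in control.

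The first question was how inhibition of lactate dehydrogenase changed the ligands. Nodal was at 17.6, 28.9, 20.6 and 15.5 CPM in LDHi replicates 1 to 4, against 7.39, 16.4, 4.76 and 6.23 CPM in control. Only control replicate 2 reached the LDHi range, and Nodal was higher in LDHi in 4 of 4 replicate numbers, as were 18.5% of all genes, by 1.76 to 4.28 times. Ratios within a replicate number are taken after a prior count of 2 is added. Its log2 fold change was 1.24 ± 0.47 (SE, n = 4 each; edgeR adjusted p = 0.197) without the block, which is no call, and 1.39 ± 0.22 (edgeR adjusted p = 0.00185) with it. In whole organoids, more cells of a type that makes these RNAs and more RNA per cell cannot be told apart. Over all genes tested, 0.909% were called higher in LDHi without the block and 9.85% with it.

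Gdf3, the second ligand, separated the conditions. It was at 20.1, 30.4, 26.1 and 15.7 CPM in LDHi replicates 1 to 4, against 6.1, 14.8, 5.79 and 5.41 CPM in control. All LDHi libraries lay above all control libraries (two-sided exact permutation p = 0.0286, the smallest that 4 against 4 can give), as did those of 4.26% of all genes. In the fit, its log2 fold change was 1.52 ± 0.41 (edgeR adjusted p = 0.0668) without the block and 1.63 ± 0.19 (edgeR adjusted p = 0.000498) with it, and Gdf3 was higher by 2.05 to 4.48 times within replicate numbers. Gdf3 lies 16.3 kb from Dppa3 and 97.4 kb from Nanog, both genes of pluripotent cells. With the block, Dppa3 rose by 1.52 ± 0.27 (edgeR adjusted p = 0.00319) and Nanog by 1.26 ± 0.14 (edgeR adjusted p = 0.000351) on the log2 scale.

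edgeR called neither antagonist in LDHi against control, without or with the block. Lefty1 was at 9.19, 17.3, 8.28 and 2.49 CPM in LDHi replicates 1 to 4, against 5.81, 37.6, 1.15 and 1.28 CPM in control. Control replicate 2 was above every LDHi library, control replicates 3 and 4 below every one, and control replicate 1 among them. The log2 fold change was -0.30 ± 1.19 (95% interval -2.64 to 2.03) without the block and 0.83 ± 0.54 (-0.22 to 1.88) with it. Left without control replicate 2, and with no block, it was 1.73, and without LDHi replicate 4 it was 0.00. Within replicate 2, Lefty1 was 0.461 times as high in LDHi as in control, while it was 1.58, 6.9 and 1.91 times as high in replicates 1, 3 and 4.

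Lefty2 was at 10.8, 22.0, 9.98 and 8.36 CPM in LDHi replicates 1 to 4, against 4.71, 22.0, 0.729 and 2.51 CPM in control. The pair of replicate 2 was equal, and in the other 3 replicate numbers Lefty2 was 2.28, 12.8 and 3.28 times as high in LDHi. The log2 fold change was 0.76 ± 1.07 (95% interval -1.33 to 2.86) without the block and 1.70 ± 0.63 (edgeR adjusted p = 0.0856) with it. The lowest control library held 19 Lefty2 counts (lower limit 0.439 CPM, exact 95% binomial interval, which covers counting error only). With the block, DESeq2 called Lefty2 higher (adjusted p = 0.0487).

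Tdgf1 was at 27.0, 47.3, 40.6 and 36.3 CPM in LDHi replicates 1 to 4, against 17.0, 26.5, 7.6 and 15.4 CPM in control. All LDHi libraries lay above all control libraries (two-sided exact permutation p = 0.0286), as did those of 4.26% of all genes. The margin was narrow: the lowest LDHi library was at 27.0 CPM and the highest control library at 26.5 CPM. Between conditions, the log2 fold change was 1.18 ± 0.43 (edgeR adjusted p = 0.176) without the block and 1.28 ± 0.30 (edgeR adjusted p = 0.0131) with it. Without replicate 3 of each condition the blocked call was lost (0.94, edgeR adjusted p = 0.0729).

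Foxh1, the nuclear partner of the Smads, was at 12.6, 21.3, 17.8 and 14.2 CPM in LDHi replicates 1 to 4, against 6.24, 19.8, 5.26 and 5.49 CPM in control. Control replicates 1, 3 and 4 lay below every LDHi library and control replicate 2 lay among those. The log2 fold change was 0.83 ± 0.46 (edgeR adjusted p = 0.42) without the block and 1.05 ± 0.23 (edgeR adjusted p = 0.00917) with it. Without control replicate 2 Foxh1 was called also with no block (1.53, edgeR adjusted p = 0.0367), and with the block its edgeR adjusted p was 0.0519 without replicate 3 and 0.0611 without replicate 4.

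In all, 0 of 6 genes were called in LDHi against control without the block, with 3 of 6 (Gdf3, Tdgf1 and Nodal) at an unadjusted p under 0.05, and 4 of 6 were called higher with it, against 9.85% of all genes. DESeq2 called 1 of 6 without the block and 5 of 6 with it, and it also called more of all genes than edgeR did, without and with the block. With replicate 2 of every condition left out and no block, a choice made after the values were seen, edgeR called 3 of 6: Gdf3 (1.83), Nodal (1.54) and Foxh1 (1.39). The share of all genes called in that fit is not given here. The median log2 fold change of the 6 genes was 1.01 without the block and 1.34 with it, against 0.01 over all genes tested in either fit. The two-sided exact permutation test of LDHi against control gave p = 0.0286 for Gdf3 and Tdgf1, 0.0571 for Nodal and 0.114 for Foxh1. The same exact test gave p = 0.171 for Lefty2 and 0.571 for Lefty1, and none of these was adjusted for the number of tests.

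**Figure D2:**
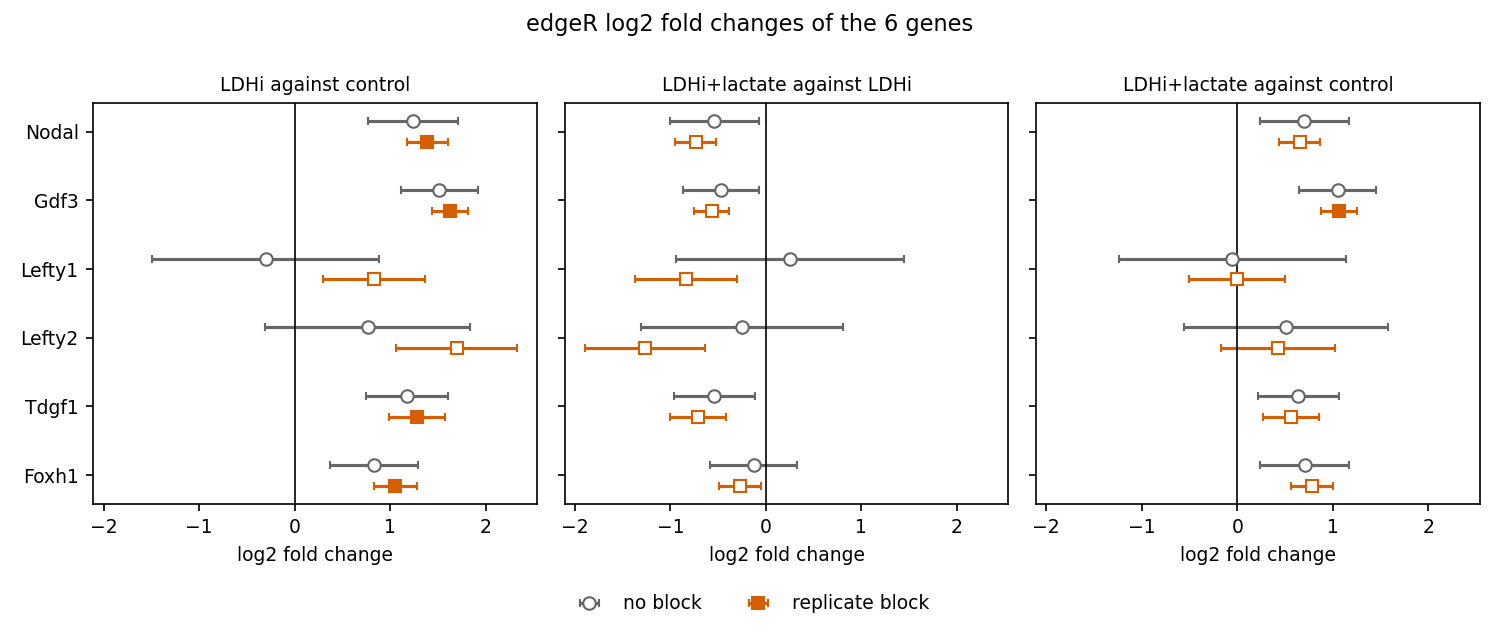
edgeR log2 fold changes of the 6 genes (x axis; bars are SE) in the 3 comparisons, without the block (circles) and with the replicate block (squares); filled symbols passed an adjusted p of 0.05. In LDHi against control the values with the block ran from 0.83 for Lefty1 to 1.70 for Lefty2, and 4 of 6 genes were called.

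Added lactate was compared with the inhibitor alone next. With lactate, Nodal was at 11.3, 29.3, 6.58 and 9.59 CPM in replicates 1 to 4, against the LDHi values above. It was lower in 3 of 4 replicate numbers and at 1.02 times the LDHi level in replicate 2. The log2 fold change was -0.54 ± 0.47 (95% interval -1.45 to 0.37) without the block and -0.74 ± 0.21 (edgeR adjusted p = 0.195) with it. Only DESeq2 with the block called Nodal lower (adjusted p = 0.0161).

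Gdf3 was at 14.5, 30.3, 10.2 and 11.9 CPM in LDHi+lactate replicates 1 to 4, and lower than in LDHi in 4 of 4 numbers, as were 10.2% of all genes, though by only 0.01 on the log2 scale in replicate 2. Its log2 fold change against LDHi was -0.47 ± 0.40 (95% interval -1.25 to 0.31) without the block and -0.56 ± 0.18 (-0.93 to -0.20; edgeR adjusted p = 0.257) with it. Tdgf1 was at 24.3, 50.4, 17.3 and 11.8 CPM in LDHi+lactate, where replicates 1 and 2 stood near their LDHi partners and replicates 3 and 4 were at 0.428 and 0.327 times the LDHi level. Foxh1, at 12.4, 28.1, 9.4 and 10.3 CPM, differed least from LDHi, with a log2 fold change of -0.27 ± 0.22 (-0.70 to 0.16) with the block.

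For the antagonists, lactate gave values on both sides of LDHi. Lefty1 was at 6.87, 35.3, 1.13 and 1.11 CPM in LDHi+lactate replicates 1 to 4, so it was 2.03 times the LDHi level in replicate 2 and 0.143 times that level in replicate 3. Lefty2 was at 9.65, 30.5, 0.309 and 2.47 CPM, and its replicate 3 library held 9 counts (0.141 to 0.586 CPM, exact 95% binomial interval), 0.0364 times the level in LDHi replicate 3. Without the block the log2 fold changes were 0.25 ± 1.19 for Lefty1 (95% interval -2.09 to 2.59) and -0.25 ± 1.06 for Lefty2 (-2.33 to 1.83). With the block they were -0.84 ± 0.53 for Lefty1 (edgeR adjusted p = 0.618) and -1.27 ± 0.63 for Lefty2 (edgeR adjusted p = 0.485), so the sign for Lefty1 depended on the block. Of the 6 genes, edgeR called 0 in LDHi+lactate against LDHi in either fit, with 0 at an unadjusted p under 0.05 without the block and 3 (Nodal, Gdf3 and Tdgf1) with it. Over all genes, edgeR called 0.0% in either direction without the block. With the block, it called 0.57% of all genes higher and 0.0677% lower in this comparison.

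Against control, Gdf3 was the 1 gene of the 6 called in LDHi+lactate organoids, with the block alone. It was higher in 4 of 4 replicate numbers, as were 18.6% of all genes, by 1.74 to 2.36 times, with a log2 fold change of 1.05 ± 0.40 (edgeR adjusted p = 0.446) without the block and 1.06 ± 0.19 (edgeR adjusted p = 0.0139) with it. With the block and without replicate 1 or replicate 4 Gdf3 was not called. Nodal and Foxh1 were also higher in 4 of 4 numbers, at 0.65 ± 0.21 (edgeR adjusted p = 0.0842) and 0.78 ± 0.22 (edgeR adjusted p = 0.0571) with the block, and Lefty1 differed least, at -0.01 ± 0.50 (95% interval -0.99 to 0.98). Over all genes, 4.18% were called higher with the block and 0.0% in either direction without it. The LDHi and LDHi+lactate comparisons with control share the control libraries.

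Between libraries of 1 condition the 6 genes varied more than most genes. Replicate 2 was the highest library for 6 of 6 genes in LDHi+lactate, in LDHi and in control. Lefty1 in control replicate 2 was 29.5 times the median of the other 3 control libraries, and Lefty1 in LDHi+lactate replicate 2 was 31.2 times the median of the other 3. The log2 range of Lefty1 in control was 4.96, and 0.14% of the 14241 genes whose log2 CPM averaged 0 or more had a range as wide. The range of Lefty2 in LDHi+lactate was 6.39, as wide as in 0.0492% of genes.

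In LDHi organoids the same genes were more even. Their highest library exceeded the lowest by 1.69 times for Foxh1 to 2.63 times for Lefty2, and by 6.95 times for Lefty1. In LDHi+lactate these ratios ran from 2.98 for Gdf3 to 98.9 for Lefty2, and in control from 2.74 for Gdf3 to 32.7 for Lefty1. The difference in spread between conditions was not tested.

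The replicate number itself was a significant term for 6 of 6 genes (edgeR adjusted p from 0.00108 for Lefty1 to 0.0379 for Tdgf1), as for 51.4% of all genes. The second library set was lower than the first for all 6, and 3 passed the test: Lefty1 by a log2 difference of -3.21 ± 0.73 (edgeR adjusted p = 0.00789), Lefty2 by -2.55 ± 0.70 (edgeR adjusted p = 0.02) and Nodal by -0.93 ± 0.29 (edgeR adjusted p = 0.0359), against 27.9% of all genes. In the second set alone, Lefty1 averaged 1.12 CPM in LDHi+lactate, 5.39 CPM in LDHi and 1.21 CPM in control (n = 2 each). In the first set it averaged 21.1 CPM in LDHi+lactate, 13.3 CPM in LDHi and 21.7 CPM in control. A test of whether the treatment differences themselves differed between sets called 0 of 6 genes in edgeR (smallest unadjusted p 0.0522, for Tdgf1 in LDHi+lactate against LDHi). It also called 0 of the 17721 genes tested in each comparison. With 2 libraries per condition and set, a lack of calls does not show that the sets agree. For Lefty1 the estimate, second minus first set on the log2 scale, was 2.85 ± 1.37 (SE) in LDHi against control. The Lefty1 estimate was -2.92 ± 1.37 in LDHi+lactate against LDHi and -0.07 ± 1.4 in LDHi+lactate against control.

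Across the 12 libraries, the pairwise correlations of log2 CPM between the 6 genes ran from 0.70 for Gdf3 with Lefty1 to 0.96 for Nodal with Gdf3. After the condition means were removed they ran from 0.80 to 0.96. The libraries share conditions and replicate numbers, so these values are descriptions.

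Ratios within a library do not depend on its scaling. The summed Lefty1 and Lefty2 level per kilobase, relative to Nodal, was 1.41, 2.27, 0.242 and 0.345 in LDHi+lactate replicates 1 to 4. It was 1.11, 1.33, 0.869 and 0.625 in LDHi, and 1.45, 3.81, 0.411 and 0.568 in control. The summed Lefty level was thus above that of Nodal in every library of the first set and below it in every library of the second. The 2 antagonists did not keep 1 ratio to each other: Lefty2 to Lefty1 per kilobase was 0.184 to 1.49 in LDHi+lactate, 0.791 to 2.26 in LDHi and 0.393 to 1.33 in control.

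Gdf3 kept closer to Nodal. Gdf3 to Nodal per kilobase lay between 0.714 and 1.33 over all 12 libraries, with 0.893 to 1.33 in LDHi+lactate, 0.877 to 1.1 in LDHi and 0.714 to 1.05 in control. Tdgf1 to Nodal lay between 0.985 and 2.1. Foxh1 to Nodal was 1.47 to 2.19 in LDHi+lactate, 1.1 to 1.41 in LDHi and 1.3 to 1.86 in control. No test was run on these ratios.

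**Figure D3:**
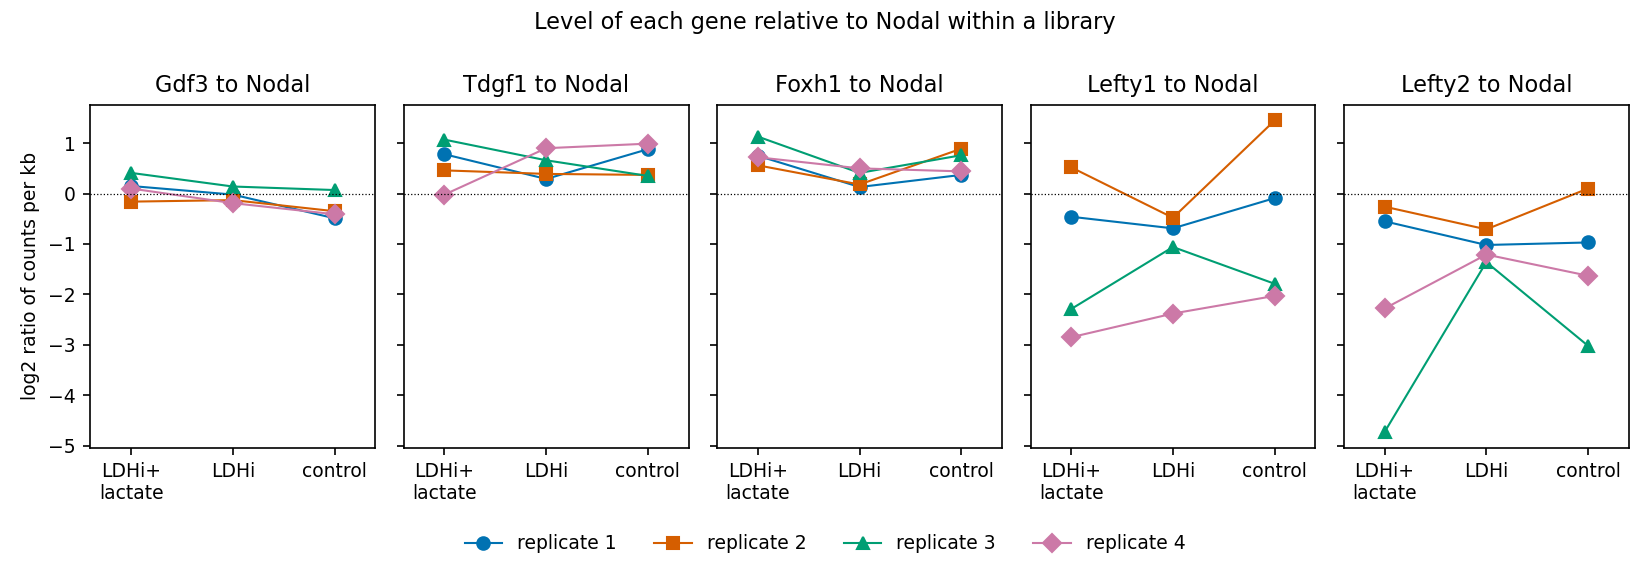
Level of Gdf3, Tdgf1, Foxh1, Lefty1 and Lefty2 relative to Nodal within each library (log2 ratio of counts per kb; the dotted line marks equal levels), by condition, with lines joining libraries of the same replicate number. Gdf3, Tdgf1 and Foxh1 stayed within a log2 range of 0.9 to 1.09 over 12 libraries, and Lefty2 to Nodal ranged over 4.83.

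Receptors and the intracellular part of the pathway followed next. Of 5 receptors and co-receptors, 4 were tested and 0 were called in LDHi against control without or with the block, with a median log2 fold change of 0.07 in both fits. The second co-receptor, Cfc1 (Cryptic), was nearly absent, at 0.653 ± 0.343 CPM in LDHi against 0.281 ± 0.291 CPM in control (SD, n = 4 each), and the type II receptor Acvr2a was at 61.7 ± 12.4 CPM against 55.6 ± 6.74 CPM. Of 11 Smads and nuclear partners, 3 were called higher with the block and 0 lower, where 9.85% of all genes were called higher and 10.1% lower, and 0 were called without it. They were Mixl1 and the corepressor Tgif1 (0.27 ± 0.06, edgeR adjusted p = 0.0117), and Trim33, a ubiquitin ligase that binds Smads (0.17 ± 0.04, edgeR adjusted p = 0.0195). Smad3 had a log2 fold change of -0.20 ± 0.08 (edgeR adjusted p = 0.1).

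Of 3 activin-type ligands tested out of 5, 0 were called in either fit, including Gdf11 (-0.27 ± 0.09, edgeR adjusted p = 0.0717 with the block). Gdf1, a partner of Nodal in mouse embryos whose exons overlap those of Cers1 on the same strand, held 0 counts in all 12 libraries. The proprotein convertases, enzymes that cut precursor proteins, moved apart. Pcsk5 fell to 8.33 ± 1.70 CPM in LDHi, against 19.2 ± 1.38 CPM in control (SD, n = 4 each; log2 fold change -1.21 ± 0.17, edgeR adjusted p = 0.00907 without the block), and Pcsk6 (PACE4) was called higher only with the block, at 51.1 ± 13.8 CPM in LDHi and 32.3 ± 8.95 CPM in control (0.67 ± 0.16, edgeR adjusted p = 0.0141). Furin had a log2 fold change of -0.14 ± 0.05 (edgeR adjusted p = 0.0721 with the block).

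Among 6 other antagonists of Nodal and activin, 1 was called higher and 1 lower with the block, near the 9.85% and 10.1% of all genes, and 0 without it. Cer1 (Cerberus) held 22, 80, 18 and 5 counts in LDHi replicates 1 to 4, against 0, 24, 0 and 0 counts in control. This rise (3.14 ± 0.85, edgeR adjusted p = 0.0268 with the block) was thus made of few reads. Tmeff1, which binds Tdgf1 in Xenopus, fell by 0.53 ± 0.06 on the log2 scale (edgeR adjusted p = 0.000524 with the block), and the activin antagonist Fst had a log2 fold change of -0.42 ± 0.18 (edgeR adjusted p = 0.122).

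Among genes induced by Smad2 and Smad3, Cer1 rose and Ltbp1, which binds latent TGF-β, fell by 0.55 ± 0.17 on the log2 scale (edgeR adjusted p = 0.0423), both with the block alone. Smad7, the inhibitory Smad, had a log2 fold change of 0.39 ± 0.14 (edgeR adjusted p = 0.0761 with the block).

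Mesoderm and endoderm genes downstream of Nodal were called in both directions: with the block 4 of 11 tested rose in LDHi against control and 1 fell, beside 9.85% and 10.1% of all genes, and without it 0 were called, beside 0.909% higher and 2.18% lower over all genes. Their median with the block was 0.54. Sox17, an endoderm factor, was at 52.0 ± 21.3 CPM in LDHi and 35.5 ± 12.5 CPM in control (SD, n = 4 each; 0.54 ± 0.09, edgeR adjusted p = 0.00307 with the block). Mixl1, of the primitive streak, held 21, 46, 54 and 13 counts in LDHi replicates 1 to 4 and 1, 13, 0 and 1 counts in control (3.81 ± 0.81, edgeR adjusted p = 0.009). Brachyury (T) was at 3.12, 4.35, 4.05 and 1.88 CPM in LDHi, against 0.246, 0.914, 0.345 and 2.36 CPM in control, and was not called (edgeR adjusted p = 0.0795 with the block). Foxa2 also rose with the block (0.52 ± 0.15, edgeR adjusted p = 0.0328), while the BMP antagonist Chrd fell by 0.71 ± 0.18 (edgeR adjusted p = 0.0181).

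**Figure D4:**
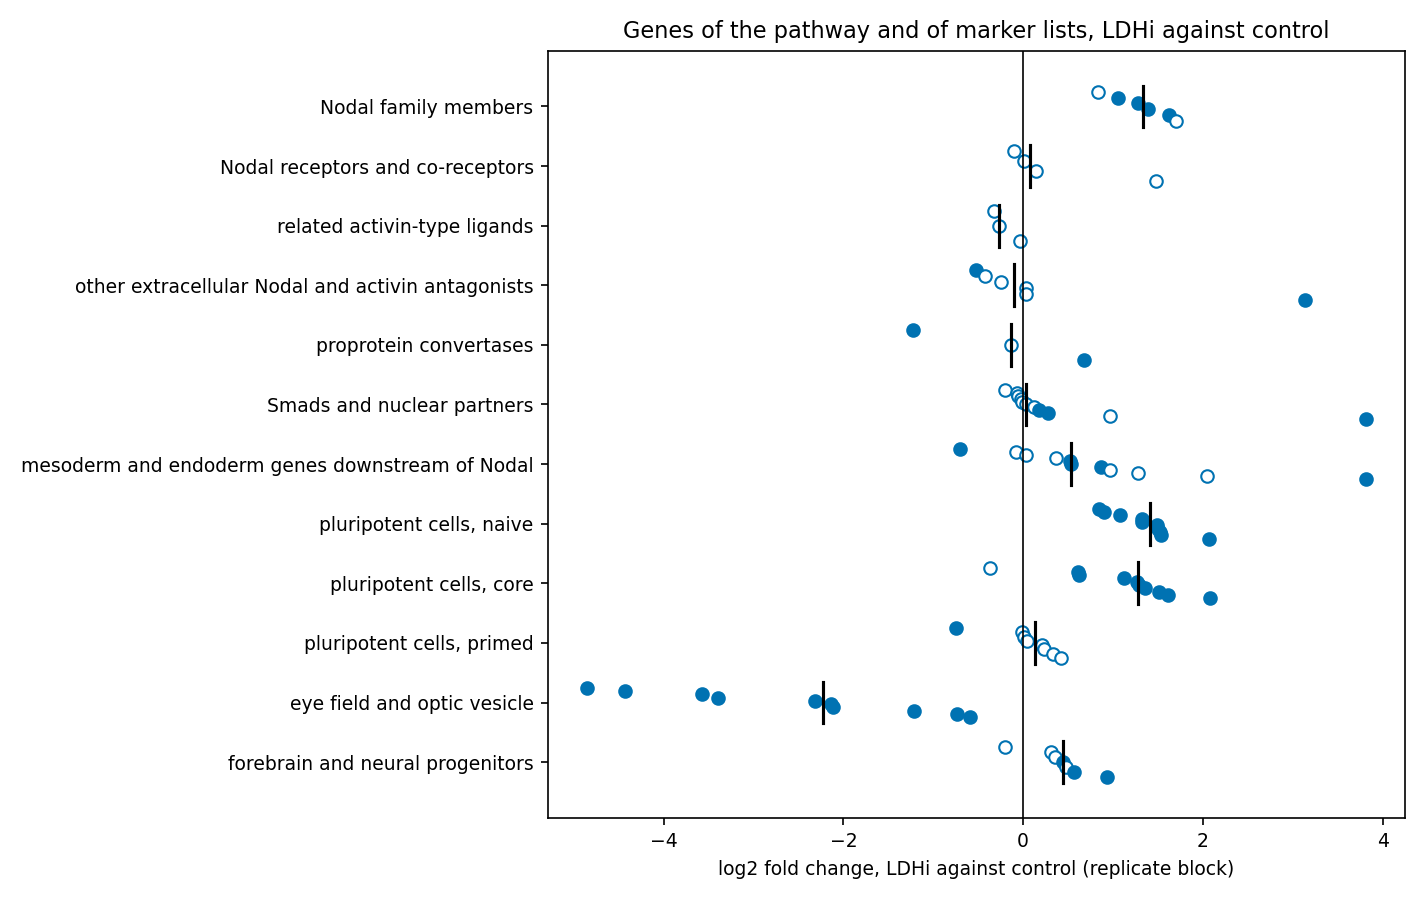
edgeR log2 fold change with the replicate block in LDHi against control (x axis) for each tested gene of 12 pathway and marker lists (1 row per list); filled points passed an adjusted p of 0.05 and black bars are list medians. The 6 Nodal pathway genes had a median of 1.34, between core pluripotency genes at 1.28 and naive pluripotency genes at 1.41, while receptors had 0.07 and eye field genes -2.23.

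Markers of naive and core pluripotent cells, and some of neural progenitors, were also higher in LDHi than in control. Of 10 naive pluripotency genes, 9 were called higher in LDHi than in control without the block and 10 with it. Over all genes, the shares called higher were 0.909% without the block and 9.85% with it. Among the naive genes called were Zfp42 (1.54 ± 0.13 with the block, edgeR adjusted p = 0.000121) and Klf4 (0.84 ± 0.08, edgeR adjusted p = 0.000182). Of 10 core pluripotency genes, 4 were called higher without the block and 9 with it, beside the same shares of all genes. Of 8 primed genes, 0 were called higher in either fit. With the block 1 of them was called lower (Otx2), beside 10.1% of all genes. The summed naive level was 416 to 777 CPM in LDHi+lactate, 512 to 880 CPM in LDHi and 211 to 354 CPM in control, and every library with the inhibitor lay above every control library. The summed core level was 1200 to 2040 CPM in LDHi+lactate, 1330 to 2220 CPM in LDHi and 870 to 1410 CPM in control.

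Pou5f1 (Oct4), which defines pluripotent cells, was at 75.6, 200, 63.3 and 58.6 CPM in LDHi+lactate replicates 1 to 4, at 90.2, 176, 151 and 96.3 CPM in LDHi, and at 29.2, 81.9, 31.9 and 36.7 CPM in control. It was highest in replicate 2 of every condition, as the 6 genes were, and its log2 fold change in LDHi against control was 1.61 ± 0.20 (edgeR adjusted p = 0.000595) with the block and 1.51 ± 0.44 (edgeR adjusted p = 0.0885) without it. The summed naive and core levels were also highest in replicate 2 of LDHi+lactate and of control. In LDHi both sums were highest in replicate 3, at 880 and 2220 CPM, against 710 and 1900 CPM in replicate 2. The summed mesoderm and endoderm level was 126 to 228 CPM in LDHi, against 95.3 to 157 CPM in control, and was highest in replicate 1 of LDHi and in replicate 4 of control. For 7 forebrain and neural progenitor genes the median log2 fold change in LDHi against control was 0.44 with the block. Without the block 0 of them were called higher, beside 0.909% of all genes, and with it 3, beside 9.85%. They were the forebrain factors Lhx5 (0.93 ± 0.19, edgeR adjusted p = 0.00797) and Fezf2 (0.56 ± 0.14, edgeR adjusted p = 0.0151) and the neural progenitor factor Sox1 (0.44 ± 0.12, edgeR adjusted p = 0.0287). Their list summed to 559 to 1040 CPM in LDHi+lactate, 746 to 1350 CPM in LDHi and 725 to 980 CPM in control, and the ranges overlapped. The part of any of these cells in the levels of the 6 genes was not tested.

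The genes whose log2 CPM followed each of the 6 most closely over the 12 libraries were searched among 14241 genes, the 6 left out. Nodal was followed by Tdrd12 (r = 0.972), Hormad1 (0.971) and Gpa33 (0.968), and Gdf3 by Slc28a1 (0.986), Zfp951 (0.984) and Tulp2 (0.984). Foxh1 was followed by Eras (0.974), known for its expression in mouse ESCs, and by Utf1 (0.97), a pluripotency gene. For Tdgf1 the closest were Tdgf1-ps1 (0.979), with which it shares sequence, and Lrrc2 (0.965), which lies 5.4 kb from it. Lefty1 was followed by Wdr4 (0.964) and Ddx49 (0.963), and Lefty2 by Parp12 (0.976). With the block, Tdrd12 had a log2 fold change of 1.28 ± 0.19 and Slc28a1 of 1.47 ± 0.18 in LDHi against control, while Wdr4 had 0.11 ± 0.06 and Parp12 0.50 ± 0.23. The libraries share conditions and replicate numbers, and the correlations describe these 12 libraries.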

How the data were processed

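RNA from 12 samples was sequenced as 50-base single reads. The authors deposited raw counts per Ensembl gene, 1 table per library and not normalized. Their processing notes list mm10, HTSeq 0.6.1p1, cutadapt 1.13, DESeq2 1.14.1 and STAR. Not given in the sources used here were the STAR version, how strand was handled and which annotation was counted. Of 54232 IDs, 54079 (99.7%) matched GENCODE vM21, which gave symbols, positions and exon lengths. No library repeated another.

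Groups and replicate numbers came from the labels. Counts were fitted in edgeR 4.0.16 (R 4.3.3; quasi-likelihood test, TMM, filterByExpr, all 12 libraries, Benjamini-Hochberg over 17721 genes, threshold 0.05), without a block as the main model and with the replicate number as a block beside it. The pairing was read from the data: libraries of the same number had correlations of 0.329 to 0.634 in their deviations from the group means, above 0.1 in 12 of 12 pairs, against -0.544 to 0.197 for other pairs. Intervals of log2 fold changes are normal intervals from the SE. CPM were TMM-scaled, and log2 CPM used a prior count of 2. Exact permutation tests of log2 CPM were two-sided and unpaired; with 4 pairs the smallest paired p is 0.125. In each of 13 other gene lists, up to 4 called genes (in the fit with or without the block) and up to 2 others were named by smallest adjusted p; defining cell type markers could be named at any value. Dppa3 was named for its position after its values were seen. For each of the 6 genes the 3 best correlated genes were found; not all genes that meet the rules are printed. The 6 genes and the lists were chosen with earlier results of these data known. The result of 1 gene of these lists, and the counts of the lists that turn on it, are not reported here. The scripts were tested on simulated counts. Alternatives were other scalings, filters, DESeq2 1.42.0, library sets and left-out libraries. Depth limits the Lefty genes most, which held as few as 9 counts in a library. Figures were drawn with matplotlib 3.10.9.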

Additional observations from a re-analysis of the deposited data

Results flagged for a closer look

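In 18 groups of 4 libraries (6 genes in 3 conditions), 5 CPM values stood far from the other 3 of their group in a Dixon test. Each came from replicate 2 of LDHi+lactate or of control. About 1 in 20 groups would be marked by chance if groups were independent. The 6 genes were measured in the same libraries and moved together, so the number marked cannot be set against that rate. Lefty1 in LDHi+lactate replicate 2 was at 35.3 CPM, with the others between 1.11 and 6.87 CPM. Lefty1 in control replicate 2 was at 37.6 CPM, with the others between 1.15 and 5.81 CPM. Gdf3 in control replicate 2 was at 14.8 CPM, with the others between 5.41 and 6.1 CPM. Foxh1 in LDHi+lactate replicate 2 was at 28.1 CPM, with the others between 9.4 and 12.4 CPM, and Foxh1 in control replicate 2 was at 19.8 CPM, with the others between 5.26 and 6.24 CPM. No LDHi library was marked in this way.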

How the results depend on the processing

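The replicate block moved the counts most. In LDHi against control, 547 genes were called without the block and 3533 with the replicate block (3546 with RLE size factors and 3444 with library totals in the blocked fit), 4117 by DESeq2 with the block and 1362 by DESeq2 without it. The count was 304 with only the 2 conditions compared, 1387 with the library set as a term, 3 in the first set alone and 110 in the second, 110 to 872 without 1 library and 1826, 2893, 2040 and 2164 in the blocked fit without replicate 1, 2, 3 or 4. Of the 6 genes, 4 were called with the block under each scaling, 5 by DESeq2 with it, 1 by DESeq2 without it, 1 with no filter, 2 with the set as a term and 1 in the second set, 0 to 2 without 1 library, 3 without replicate 2 of every condition (a setting chosen after seeing the data), and 4, 4, 2 and 3 in the blocked fit without replicate 1, 2, 3 or 4.

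In LDHi+lactate against LDHi, 0 genes were called without the block (603 at an unadjusted p under 0.05), 113 with the block (113 with RLE, 119 with totals), 55 by DESeq2 and 491 by DESeq2 with the block. With no filter or with the set as a term 1 gene was called, 0 to 2 without 1 library, 1 without replicate 2 of every condition, and 8, 3, 11 and 114 in the blocked fit without replicate 1, 2, 3 or 4. Only DESeq2 with the block called 1 of the 6 genes. In LDHi+lactate against control, 0 genes were called without the block (1653 at an unadjusted p under 0.05), 1426 with it (1418 with RLE, 1390 with totals), 229 by DESeq2, 2500 by DESeq2 with the block, 2 with no filter, and 89, 692, 381 and 262 in the blocked fit without replicate 1, 2, 3 or 4. Of the 6 genes, 1 was called with the block under each scaling, 3 by DESeq2 with it, and 0, 2, 1 and 0 in the blocked fit without replicate 1, 2, 3 or 4.

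The log2 fold change of Lefty1 turned positive in LDHi against control with the block (0.83; RLE 0.83, totals 0.81, DESeq2 1.02), with the set as a term (0.81), in the second set (2.12) and without replicate 2 of every condition (1.25). It ran from -0.79 to 1.73 without 1 library and was 0.92, 1.54, 0.10 and 0.72 in the blocked fit without replicate 1, 2, 3 or 4. In LDHi+lactate against LDHi, Lefty1 turned negative with the block (-0.84; RLE -0.84, totals -0.83, DESeq2 -1.04), with the set as a term (-0.88), in the second set (-2.24) and without replicate 2 of every condition (-1.11), with -1.61 to 0.74 without 1 library and -1.04, -1.49, -0.10 and -0.70 in the blocked fit without replicate 1, 2, 3 or 4. In LDHi+lactate against control it was 0.14 without replicate 2 of every condition, -1.92 to 1.98 without 1 library and in the blocked fit 0.05 without replicate 2 and 0.02 without replicate 4. In the first set alone, Lefty2 (0.29), Tdgf1 (0.01) and Foxh1 (0.26) were higher in LDHi+lactate than in LDHi, and Lefty2 was lower than in control in the second set (-0.23). Without 1 library, Lefty2 ran from -1.62 to 0.15 and Foxh1 from -0.62 to 0.04 against LDHi, and Lefty2 from -0.86 to 1.99 against control. The causes were not tested. Nodal and Gdf3 kept their direction in all 30 alternatives in each comparison. A filter of at least 10 counts in every library removed Lefty2.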
